A study of Mus musculus with 24 samples.

Results

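Platelet and megakaryocyte transcripts were followed in the hearts of mice with experimental autoimmune myocarditis (EAM) and of their controls, as 10 genes of the 41388 in the count table. The genes were Gp9, Treml1, Ppbp, Tubb1, F5, Pf4, Gp1ba, Gp5, Gp6 and Itga2b, and each symbol matched 1 Ensembl identifier. They are treated here as chosen on their values in control hearts, where most of them fell with time. The exact contrast used to choose them is not stated, and values that rest on control hearts are therefore given as a description. RNA was sequenced from a portion of each of 24 hearts, from 4 mice with EAM and 4 controls on each of day 10 (D10), day 15 (D15) and day 21 (D21) after immunization. All mice were wild-type male BALB/c (BALB/cAnNCrl), 8 to 10 weeks old when immunized. EAM mice received a cardiac myosin heavy chain peptide (MyHC-α) in supplemented complete Freund's adjuvant on days 0 and 7 with pertussis toxin on day 0. Control mice received the adjuvant and the toxin too, with PBS in place of the peptide, so every heart came from an animal exposed to mycobacterial adjuvant, and no naïve heart was included. The study chose EAM samples, as far as it could, for the presence of inflammation. At D10, however, it found neither CD45+ cells (leukocytes) in the heart nor cardiac troponin I raised in any EAM mouse. CD45+ cells were raised at D15 and D21. Each label names a separate heart.

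Platelets are cell fragments without a nucleus, shed by megakaryocytes in the bone marrow, lung and spleen, and they carry messenger RNA that was made in the megakaryocyte. They bind von Willebrand factor, collagen and fibrinogen through surface receptors, change shape through a ring of microtubules, and release granules filled with chemokines and clotting factors. A portion of heart tissue holds such RNA from platelets in its blood, from platelets attached to vessels and, where present, from megakaryocytes. The sources used here do not say whether the hearts were flushed of blood.

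The libraries held between 15814863 and 24980864 counts, and 3 counts, the limit that a count of 0 allows, corresponded to 0.105 to 0.200 CPM (read counts scaled to a common library size, here with TMM) in single libraries. The 4 D21 EAM libraries carried another library code than the other 20, so that code and D21 EAM cannot be told apart. Levels are TMM-normalized CPM unless RPKM (CPM divided by the exon length in kilobases) is named. Each of the 10 genes had 1 read or more in at least 20 of the 24 libraries, and for Gp5 and Gp6 some of these libraries held only 1 to 3 reads. Summed over the 10 genes, D10 control hearts held 69.4 to 180 CPM and D10 EAM hearts 87.0 to 137 CPM, while D15 control hearts held 16.9 to 21.8 CPM and D21 control hearts 14.3 to 25.9 CPM. EAM hearts held 37.2 to 82.7 CPM at D15 and 26.3 to 58.3 CPM at D21. The 82.7 CPM of replicate 2 at D15 lay within the range of D10 control hearts but below each D10 EAM heart. Pf4 made up 44.4 CPM of it and F5 8.86 CPM. In 7 of the 10 genes (Gp9, Treml1, Ppbp, Tubb1, Gp5, Gp6 and Itga2b) each of the 8 D10 hearts was above each of the 16 later hearts, as was so for 27 (0.165%) of 16318 genes with 10 or more reads in at least 4 libraries. The 27 include these 7. This comparison holds the control hearts on which the genes are treated as chosen, so it is a description that in part restates that choice. In bulk samples such as these, fewer platelets or megakaryocytes and less RNA per cell cannot be told apart. Single hearts stood apart from their groups. Control replicate 3 at D10 reached 180 CPM where the other 3 held 69.4 to 73.1 CPM, EAM replicate 2 at D10 reached 137 CPM, and EAM replicate 2 at D15 reached 82.7 CPM. Summed neutrophil markers were 298 CPM in control replicate 3 at D10 against 154 to 203 CPM in its group, 214 CPM in EAM replicate 2 at D10 against 352 to 990 CPM, and 1367 CPM in EAM replicate 2 at D15 against 736 to 821 CPM. The last heart also held 18.3 CPM of B cell markers against 6.03 to 10.0 CPM. The part of these markers in the outlying values was not tested.

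**Figure D1:**
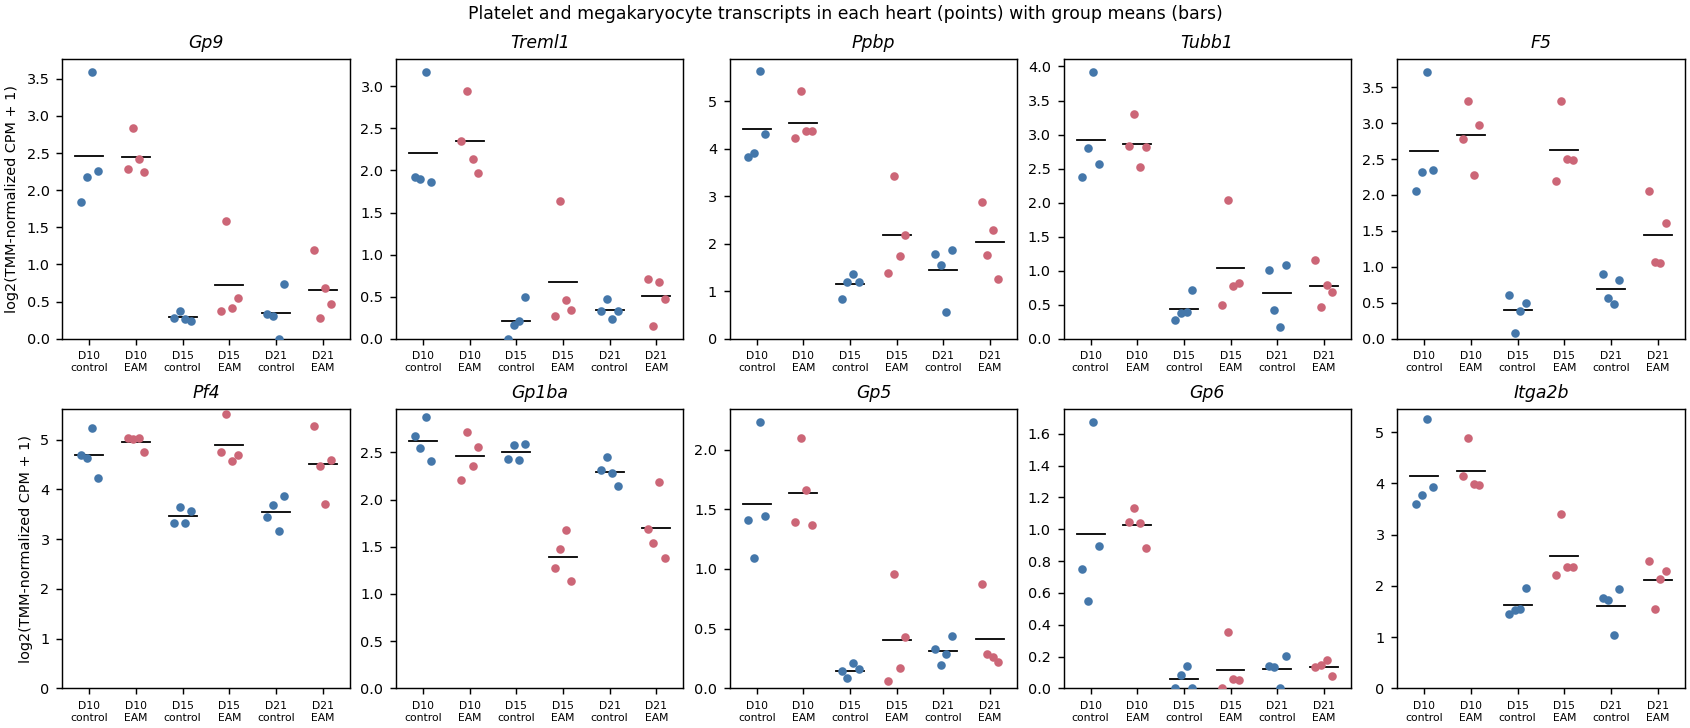
Levels of the 10 platelet and megakaryocyte genes in each heart (vertical axes, log2 of TMM-normalized CPM + 1) by day and treatment (horizontal axes), with 1 point per heart, 4 hearts per group, and bars for group means. In 7 panels all D10 points lie above all later points, whereas for F5 and Pf4 the D15 EAM points overlap the D10 EAM points, and Gp1ba was at 4.35 to 5 CPM in D15 control hearts.

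Per kilobase of exon, Pf4 and Ppbp were the most abundant of these genes in D10 control hearts, at 35.8 ± 11.1 and 21.8 ± 15.5 RPKM (SD, n = 4). Gp9 (5.92 ± 4.42 RPKM), Tubb1 (5.20 ± 3.28), Itga2b (3.43 ± 2.24) and Treml1 (2.88 ± 1.88) followed, and neighbours in this order differed by less than their SDs. Lower levels were measured for Gp1ba (1.92 ± 0.32 RPKM), Gp5 (0.93 ± 0.52), F5 (0.78 ± 0.56) and Gp6 (0.18 ± 0.13).

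Gp1ba, Gp9 and Gp5 encode subunits of the GPIb-IX-V complex, through which platelets attach to von Willebrand factor. The 3 genes did not behave alike in control hearts. Megakaryocyte genes are commonly described as bound by GATA and ETS family factors near their starts, and for this reason the 250 bases before the RefSeq start (GRCm38.p6, as given by RefSeq, 5′ to 3′ on the gene's strand) are shown for the 3 subunits and for Itga2b. Capitals mark a GATA motif (GATA with A or T before it and A or G after it) or an ETS motif (GGAAG with A or C before it), each of 6 letters and on either strand.
Gp1ba, chr11:70638872-70639121, plus strand: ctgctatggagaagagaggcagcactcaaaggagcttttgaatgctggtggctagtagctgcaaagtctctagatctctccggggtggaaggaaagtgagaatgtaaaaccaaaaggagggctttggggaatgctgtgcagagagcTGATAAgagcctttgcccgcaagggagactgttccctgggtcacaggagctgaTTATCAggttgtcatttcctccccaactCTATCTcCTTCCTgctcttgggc
Gp9, chr6:87777820-87778069, plus strand: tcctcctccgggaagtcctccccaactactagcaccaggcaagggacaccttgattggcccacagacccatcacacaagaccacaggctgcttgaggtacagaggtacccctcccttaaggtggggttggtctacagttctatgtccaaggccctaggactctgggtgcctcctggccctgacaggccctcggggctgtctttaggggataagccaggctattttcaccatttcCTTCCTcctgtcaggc
Gp5, chr16:30310782-30311031, minus strand: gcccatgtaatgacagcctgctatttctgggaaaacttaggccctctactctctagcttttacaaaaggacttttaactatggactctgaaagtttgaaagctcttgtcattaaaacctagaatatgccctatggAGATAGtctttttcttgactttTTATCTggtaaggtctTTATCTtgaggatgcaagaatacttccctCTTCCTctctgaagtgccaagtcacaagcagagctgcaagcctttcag
Itga2b, chr11:102469884-102470133, minus strand: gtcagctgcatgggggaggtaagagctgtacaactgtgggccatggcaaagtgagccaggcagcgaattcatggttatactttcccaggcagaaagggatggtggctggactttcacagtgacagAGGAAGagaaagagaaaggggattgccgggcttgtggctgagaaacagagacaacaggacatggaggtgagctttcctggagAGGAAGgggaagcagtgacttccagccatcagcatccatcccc

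In these windows Gp1ba and Gp5 each held 3 GATA motifs and 1 ETS motif, Gp9 held 1 ETS motif, and Itga2b held 2 ETS motifs. Over the 10 genes, a GATA motif was found in 3 (Gp1ba, Gp5 and Gp6), against 26.5% of 32851 promoters of the same length. An ETS motif was found in 7, against 39.2% of promoters, and both in 2, against 9.21%. These matches are letters only, and their part in the levels was not tested. Gp1ba, whose level in control hearts moved least between D10 and D15 among the genes tested, and Gp5, which fell with most of the others, held the same number of each motif.

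Gp9 (chr6:87778072-87779768 in GRCm38) encodes GPIX. Its level was 2.57, 3.53, 11 and 3.77 CPM in D10 control hearts and 0.208, 0.295, 0.207 and 0.177 CPM in D15 control hearts. EAM hearts had 3.89, 6.12, 4.34 and 3.75 CPM at D10 and 0.291, 2, 0.337 and 0.463 CPM at D15. At both days the 2 treatments overlapped, and within each treatment no D15 heart reached a D10 heart, a fall without overlap that 5.74% of all genes showed in control hearts and 26.5% in EAM hearts. At D21 the levels were 0 to 0.666 CPM in control hearts and 0.218 to 1.28 CPM in EAM hearts. Gp5 (chr16:30307685-30310779) encodes GPV and was at 1.13 to 3.71 CPM in D10 control hearts and 1.58 to 3.29 CPM in D10 EAM hearts. It was represented by 1 to 3 reads in each D15 control heart, at or under the limit of 3 counts. In D15 EAM hearts it had 1, 27, 3 and 9 reads, and the 27 reads belonged to replicate 2.

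Gp1ba (chr11:70639122-70642036) encodes GPIbα, the subunit that binds von Willebrand factor. Control hearts held 5.37, 4.87, 6.35 and 4.30 CPM at D10, 4.38, 4.96, 4.35 and 5 CPM at D15, and 3.96, 4.47, 3.85 and 3.43 CPM at D21. These groups overlapped. EAM hearts held 3.62, 5.55, 4.12 and 4.91 CPM at D10, 1.41, 1.79, 2.19 and 1.20 CPM at D15, and 2.22, 1.91, 3.54 and 1.60 CPM at D21. At D15 each EAM heart was below each control heart, as in 35.9% of all genes. Relative to Itga2b, the Gp1ba counts were 0.172 to 0.485 in the 8 D10 hearts, 1.73 to 2.63 in D15 control hearts and 0.186 to 0.525 in D15 EAM hearts.

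Gp6 (chr7:4363965-4397744) encodes GPVI, the platelet collagen receptor that signals through the Fc receptor gamma chain. It was the scarcest of the 10 genes, with 9 to 39 reads in D10 control hearts and 16 to 24 reads in D10 EAM hearts. The 4 D15 control hearts held 3 reads together and the 4 D15 EAM hearts 10 reads, of which 8 were in replicate 2. At D21 both treatments held 7 reads in all, so a difference between them was not detectable at this depth.

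Itga2b (chr11:102453297-102470122) encodes integrin αIIb, which pairs with the β3 chain as the fibrinogen receptor and is expressed from early megakaryocyte stages. Control hearts had 11.1, 12.8, 37 and 14.1 CPM at D10, 1.72, 1.89, 1.92 and 2.89 CPM at D15, and 2.39, 2.30, 1.05 and 2.82 CPM at D21. EAM hearts had 16.7, 28.7, 14.9 and 14.6 CPM at D10, 3.62, 9.59, 4.18 and 4.17 CPM at D15, and 4.63, 1.91, 3.41 and 3.86 CPM at D21. The treatments overlapped at D10, and at D15 each EAM heart was above each control heart, as in 34.5% of all genes.

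Treml1 and Tubb1 encode a receptor and a tubulin of the platelet. Treml1 (chr17:48359916-48367176), also named TLT-1, is a receptor of the alpha granule membrane, and its level fell from 2.64 to 7.97 CPM in D10 control hearts to 0 to 0.412 CPM in D15 control hearts. EAM hearts had 2.90 to 6.68 CPM at D10 and 0.208, 2.10, 0.380 and 0.270 CPM at D15. Tubb1 (chr2:174450695-174457882), the β1 tubulin of the microtubule ring, was at 4.17 to 14.2 CPM in D10 control hearts and at 0.208 to 0.648 CPM in D15 control hearts. EAM hearts had 4.73 to 8.89 CPM at D10 and 0.416, 3.12, 0.717 and 0.771 CPM at D15. For both genes, D15 EAM replicate 2 lay far above the other 3 hearts of its group, whose levels overlapped those of control hearts.

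Ppbp, Pf4 and F5 encode granule contents. Ppbp (chr5:90768518-90770063) is the precursor of the neutrophil-attracting chemokine CXCL7. Its level was 13.2, 13.9, 48.5 and 18.7 CPM in D10 control hearts and 0.781, 1.30, 1.55 and 1.30 CPM in D15 control hearts. EAM hearts held 17.7, 35.9, 19.8 and 19.7 CPM at D10 and 1.62, 9.66, 2.36 and 3.55 CPM at D15. At D15 each EAM heart was above each control heart, as for Itga2b and 34.5% of all genes, and at D21 the range of EAM hearts (1.38 to 6.36 CPM) overlapped that of control hearts (0.481 to 2.66 CPM). Ppbp and Itga2b kept close to a fixed proportion at D10, with 1.06 to 1.35 counts of Ppbp per count of Itga2b in all 8 hearts, the outlying control and EAM hearts included.

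Pf4 (chr5:90772435-90773383), platelet factor 4 or CXCL4, begins 2371 bases beyond the end of Ppbp on the same strand, and macrophages are known to express it too. Control hearts held 24.7, 23.7, 36.8 and 17.8 CPM at D10, 8.96, 11.6, 8.96 and 10.8 CPM at D15, and 9.81, 11.9, 7.96 and 13.7 CPM at D21. EAM hearts held 31.7, 31.3, 31.6 and 25.8 CPM at D10, 26, 44.4, 22.8 and 25.0 CPM at D15, and 37.8, 21.1, 12.1 and 23.0 CPM at D21. In control hearts no D15 level reached a D10 level, whereas D10 and D15 EAM hearts overlapped. Its counts per count of Itga2b were 0.997 to 2.23 in D10 hearts, 3.76 to 6.13 in D15 control hearts and 4.63 to 7.20 in D15 EAM hearts.

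F5 (chr1:164151838-164220277) encodes coagulation factor V, the cofactor of factor Xa, which is stored in platelet alpha granules and is otherwise made mainly in the liver. Its level was 3.14, 4, 12.1 and 4.10 CPM in D10 control hearts and 0.521, 0.059, 0.311 and 0.412 CPM in D15 control hearts. EAM hearts held 5.88, 8.89, 3.84 and 6.86 CPM at D10, 3.58, 8.86, 4.68 and 4.63 CPM at D15, and 3.15, 1.09, 1.07 and 2.04 CPM at D21. D15 EAM hearts thus overlapped D10 EAM hearts, and each was above each D15 control heart, again as in 34.5% of all genes. There were 0.258 to 0.469 counts of F5 per count of Itga2b in D10 hearts and 0.923 to 1.12 in D15 EAM hearts. A short antisense RNA annotated within F5, Gm16548, overlaps it by 380 bases and was at 0.0369 CPM on average, and the sources used here do not give the strand setting of the authors' counting.

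**Figure D2:**
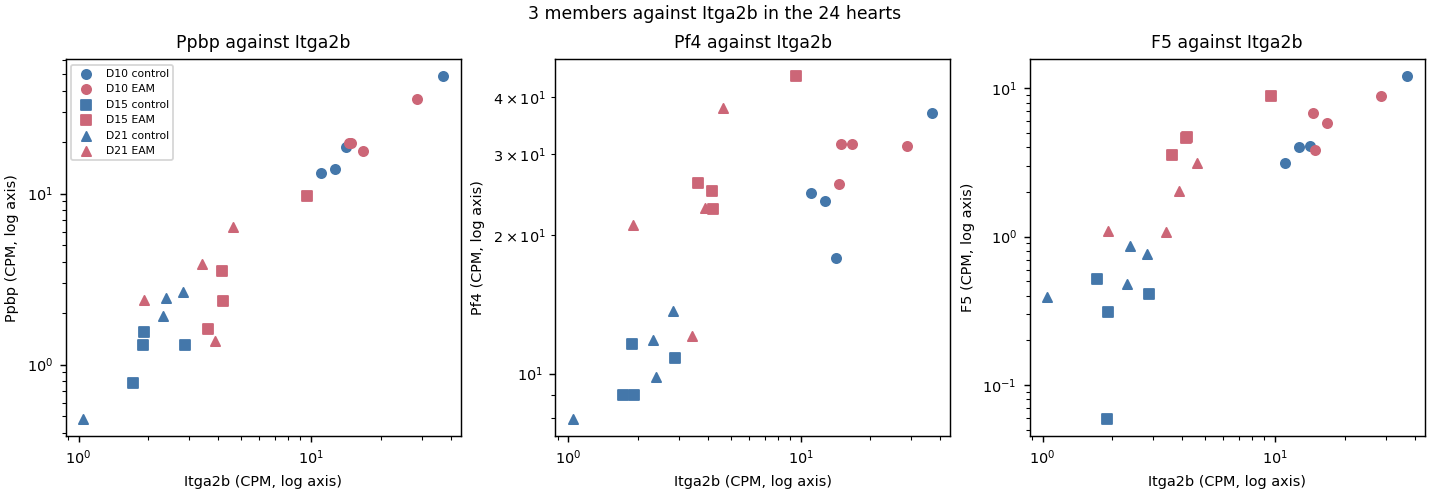
Levels of Ppbp, Pf4 and F5 (vertical axes, CPM, log scale) against Itga2b (horizontal axes, CPM, log scale) in the 24 hearts, with colour for treatment and shape for day. Ppbp lies near 1 line in D10 hearts (1.06 to 1.35 counts per count of Itga2b), and the D15 EAM hearts hold more Pf4 (4.63 to 7.20) and F5 (0.923 to 1.12) per count of Itga2b than the D10 hearts (0.997 to 2.23 and 0.258 to 0.469).

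In control hearts, D15 was compared with D10 in 1 edgeR fit of the 12 control libraries, and a gene was called at a false discovery rate (FDR) under 0.01 with a change of 2-fold or more. The genes were chosen with control hearts over time in view, so the sizes and calls are a description that restates that choice. In this contrast 0.0718% of 15311 genes were called lower at D15 and 0% higher, 11 genes in all, of which 7 were platelet and megakaryocyte genes of the list. Gp9, Treml1, Tubb1 and Gp5 passed the filter on low counts only through the D10 hearts. The log2 fold changes of the 7 were -4.51 ± 0.64 (SE) for Gp9, -4.53 ± 0.57 for Treml1, -4.24 ± 0.51 for Ppbp, -4.31 ± 0.57 for Tubb1, -4.10 ± 0.53 for F5, -4.12 ± 0.48 for Gp5 and -3.15 ± 0.40 for Itga2b. Pf4 (-1.35 ± 0.20) and Gp1ba (-0.15 ± 0.13) were not called, and Gp6 had too few reads to be tested. The remaining 4 of the 11, named after their values were seen, were Clec1b, which encodes the platelet podoplanin receptor CLEC-2 (-3.03), the adhesion receptor gene Cd226 (-3.15), Nrgn (-3.01) and the cytokine signalling inhibitor Socs3 (-1.48). The count depended on the test and on single libraries. It was 8 with DESeq2 or the likelihood ratio test, 0 with limma-voom, 0 without D15 control replicate 1, 2 or 3 and 3 without D10 control replicate 2, and 5 to 8 without any other library.

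Between D21 and D10 control hearts the same description applies, with 8 of 9 genes called lower, and 0.353% of all genes called lower and 0.607% higher. The log2 fold changes ran from -4.19 ± 0.60 for Gp9 to -1.25 ± 0.20 for Pf4 among those called, and Gp1ba was at -0.41 ± 0.13. The count was 0 without D21 control replicate 3, and 5 without D10 control replicate 2 or 3. Between D21 and D15 control hearts the log2 fold changes of the 9 genes lay between -0.26 and 1.08. In that contrast edgeR called 0% of all genes in either direction, and 1491 genes had an unadjusted p under 0.05. The direction of the genes called held in each fit with 1 library left out in which they were tested. Among control hearts, Treml1 and Gp5 had 10 or more reads only in the 4 D10 hearts. Fits without 1 of these 4 did not test them, so they could not be counted as called there.

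Other cells' markers were read beside the fall in control hearts. The summed level of 13 neutrophil markers was 154 to 298 CPM in D10 control hearts, 23.2 to 103 CPM in D15 control hearts and 15.9 to 139 CPM in D21 control hearts, without overlap between D10 and either later day. For 15 macrophage markers the ranges were 620 to 948, 491 to 618 and 489 to 719 CPM. None of these markers was called between D15 and D10 control hearts, with a median log2 fold change of -1.70 over 11 neutrophil genes tested and -0.48 over 15 macrophage genes. The summed level of 17 erythroid markers was 496 to 665 CPM at D10 and 424 to 593 CPM at D15, so the groups overlapped, and 0 of 11 tested were called, with a median of -0.24. Endothelial (9 genes), cardiomyocyte (9), mast cell (10), T cell (9) and B cell (8) lists also had 0 genes called in this contrast, with medians of 0.03, -0.05, 0.14, -0.35 and 0.16. The part of these cells in the platelet result was not tested. The 6 thymus genes did not pass the filter on low counts in any comparison, at 0 to 0.144 CPM summed in control hearts. Of 7 lung genes, Sftpc had 0 to 4 reads per group of 4 hearts, and the rise of the summed list to 31.5 to 40.3 CPM in D15 EAM hearts came from Napsa, at 29.9 CPM or more in each.

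**Figure D3:**
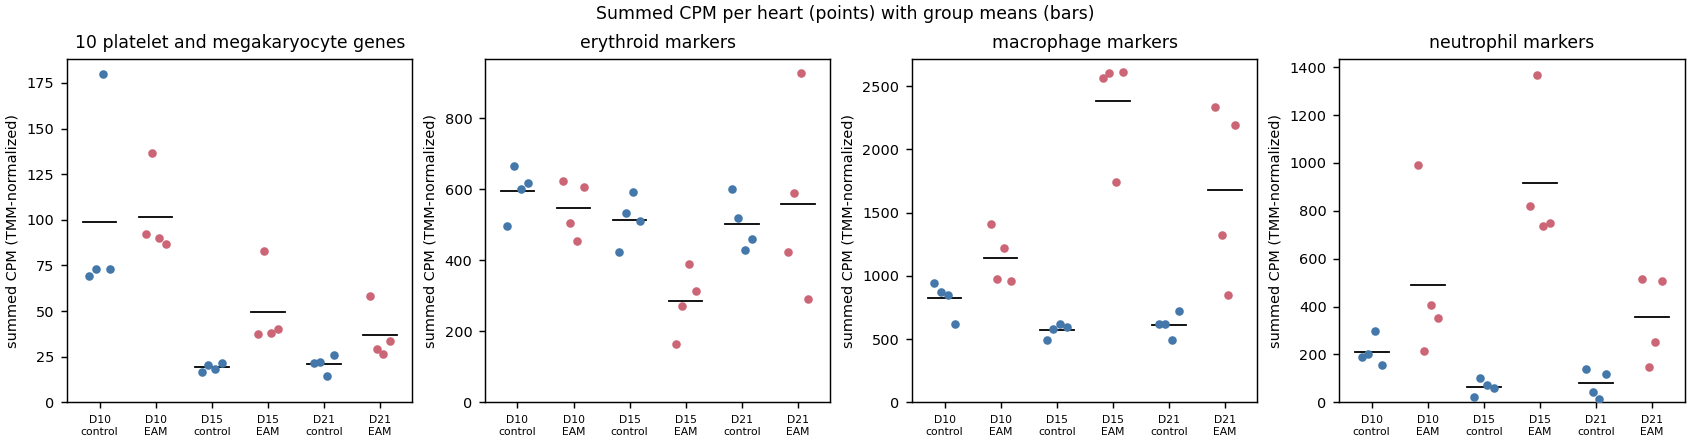
Summed TMM-normalized CPM per heart (vertical axes) of the 10 platelet and megakaryocyte genes and of erythroid, macrophage and neutrophil markers, by day and treatment (horizontal axes), with 1 point per heart, 4 hearts per group, and bars for group means. The sum of the 10 genes is at 16.9 to 21.8 CPM in D15 control hearts and 37.2 to 82.7 CPM in D15 EAM hearts, below the D10 hearts of the same treatment (69.4 to 180 and 87.0 to 137 CPM), whereas macrophage markers are at 961 to 1410 CPM in D10 EAM hearts and 1740 to 2609 CPM in D15 EAM hearts.

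EAM hearts hold none of the control libraries, and their course over time was tested in 1 edgeR quasi-likelihood fit of the 12 EAM libraries, with Benjamini-Hochberg adjustment over 15951 genes. D15 and D10 EAM libraries carried the same library code. Gp9, Treml1, Gp5 and Gp6 passed the filter on low counts only through the D10 hearts, where they are high, so that a fall was built into their being tested, and their values are a description. Of the other 6 genes, 4 were called lower at D15 than at D10 and 0 higher, where 5.86% of all genes were called lower and 5.61% higher. Ppbp fell by 2.38 ± 0.57 (SE) on the log2 scale (adjusted p = 0.0076, edgeR), Tubb1 by 2.29 ± 0.55 (0.0075), Itga2b by 1.75 ± 0.37 (0.0053) and Gp1ba by 1.42 ± 0.27 (0.0047). DESeq2, the likelihood ratio test and limma-voom called the same 4 genes. F5 (-0.18 ± 0.38, adjusted p = 0.71) and Pf4 (0.01 ± 0.30, adjusted p = 0.97) were not called by any of these tools. For the 4 genes called, each D15 EAM heart was below each D10 EAM heart, as for 26.5% of all genes. The fitted log2 fold changes of the 4 genes described were -2.47 ± 0.61 for Gp9, -2.45 ± 0.67 for Treml1, -2.46 ± 0.68 for Gp5 and -3.32 ± 0.58 for Gp6. These p-values are independent of the choice of genes only as far as EAM hearts did not enter it.

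The number called depended on single libraries. Of the 6 genes, 4 were called without D10 EAM replicate 1, 2 without D15 EAM replicate 3 (Itga2b and Gp1ba), and 0 without D10 EAM replicate 2, 3 or 4 or D15 EAM replicate 1, 2 or 4. Without TMM, on total counts, 2 were called. The direction held in each of these fits, from -3.16 to -2.10 on the log2 scale for Ppbp, -3.29 to -2.01 for Tubb1, -2.19 to -1.47 for Itga2b and -1.58 to -1.30 for Gp1ba with 1 library left out. Beside this fall, summed cardiomyocyte markers were 22236 to 38541 CPM in D10 EAM hearts and 8690 to 22297 CPM in D15 EAM hearts, with 5 of 9 called lower, and summed T cell markers were 4.65 to 38.6 and 61.3 to 85.7 CPM, with 3 of 9 called higher. Endothelial markers summed to 1040 to 1524 CPM in D10 EAM hearts and 907 to 1019 CPM in D15 EAM hearts without overlap, and 0 of 9 were called. Of 15 macrophage markers 4 were called higher, and of 13 neutrophil markers 2, the latter summing to 214 to 990 CPM at D10 and 736 to 1367 CPM at D15. Erythroid markers summed to 453 to 624 CPM in D10 EAM hearts and 163 to 390 CPM in D15 EAM hearts without overlap, and 1 of 12 was called lower. Sptb, the spectrin gene that held the most of this sum, went from a mean of 223 to 122 CPM, and without it the ranges were 251 to 464 and 58.5 to 206 CPM. The part of these shifts in the fall of platelet genes was not tested.

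**Figure D4:**
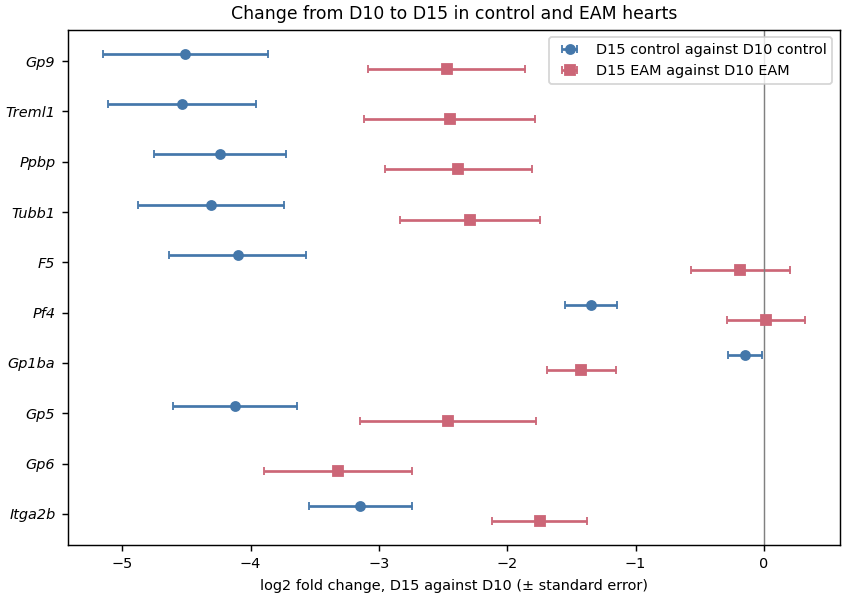
Fitted log2 fold change of D15 against D10 (horizontal axis, with standard errors) for each gene (vertical axis) in control hearts (circles) and EAM hearts (squares), 4 hearts per group. F5 is at -4.10 in control hearts and -0.18 in EAM hearts, Gp1ba at -0.15 and -1.42, and Gp6 was tested in EAM hearts only.

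At D21, 0 of the same 6 genes were called against D10 EAM hearts by edgeR's quasi-likelihood test or limma-voom, and 5 had an unadjusted p under 0.05, as had 20.8% of all genes. In this contrast 0.0502% of all genes were called lower and 0% higher. The adjusted p in edgeR was 0.021 for Itga2b (-2.41 ± 0.38), 0.035 for Tubb1 (-3.08 ± 0.59) and 0.044 for Ppbp (-2.71 ± 0.59), up to 0.54 for Pf4. DESeq2 and the likelihood ratio test each called 4, namely Ppbp, Tubb1, F5 and Itga2b. In 5 of the 6 genes each D21 EAM heart was below each D10 EAM heart, as in 5.01% of all genes. The 8 genes that were called in this contrast, named after their values were seen, were Bmp10, Sln, Hamp, Mybphl, Myl4, Cd207, Cpne5 and Vsig4. Bmp10, Sln and Myl4 are known as atrial transcripts, with log2 fold changes of -9.33, -7.48 and -5.90, and the portion of heart taken, the library code and the day cannot be told apart here. Between D21 and D15 EAM hearts edgeR called 0 of the 6 genes, with 1 at an unadjusted p under 0.05, F5 (-1.57 ± 0.41, adjusted p = 0.024), where 40.2% of all genes had one. DESeq2 and the likelihood ratio test called 1 each and limma-voom 0, and 0% of all genes were called in either direction by edgeR.

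EAM and control hearts were also compared within each day. The control hearts are those on which the genes were chosen, so the sizes and calls are a description, and the p of no single gene is given. At D10, 0 of 10 genes were called by edgeR, DESeq2 or limma-voom with 0% of all genes called in either direction. None of the 10 had an unadjusted p under 0.05, which 15.3% of all genes had. The log2 fold changes lay between -0.22 ± 0.43 for Gp9 and 0.21 ± 0.20 for Pf4. Control replicate 3 and EAM replicate 2 stood apart from their groups, and the standard errors of the genes other than Pf4 and Gp1ba were 0.39 to 0.44.

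At D15, 6 genes had enough reads to be tested, and 3 were called higher in EAM hearts and 1 lower, where 18.1% of all genes were called higher and 12.9% lower. F5 was higher by 4.06 ± 0.45 on the log2 scale, Pf4 by 1.59 ± 0.22 and Itga2b by 1.40 ± 0.34, and Gp1ba was at -1.46 ± 0.19. Ppbp (1.85 ± 0.56) and Tubb1 (1.85 ± 0.71) were not called by edgeR's quasi-likelihood test. DESeq2 and the likelihood ratio test also called Ppbp, 4 higher in all, and limma-voom called F5 and Pf4 but not Itga2b, 2 higher in all, with Gp1ba lower by each tool. Gp9, Treml1, Gp5 and Gp6 were too low to be tested, with 16, 12, 8 and 3 reads over the 4 D15 control hearts and 84, 81, 40 and 10 over the 4 D15 EAM hearts. Of the latter, 57, 60, 27 and 8 reads were in replicate 2 alone. Macrophage markers summed to 491 to 618 CPM in D15 control hearts and 1740 to 2609 CPM in D15 EAM hearts, with 10 of 15 called higher, and 13 of 13 neutrophil markers and 9 of 9 T cell markers were called higher. Cardiomyocyte markers were called lower in 6 of 9 cases. Endothelial markers summed to 1293 to 1654 CPM in D15 control hearts and 907 to 1019 CPM in D15 EAM hearts, with 1 of 9 called lower. Erythroid markers summed to 424 to 593 CPM in D15 control hearts and 163 to 390 CPM in D15 EAM hearts, with 2 of 11 called lower, and without Sptb the ranges overlapped (188 to 319 and 58.5 to 206 CPM). The part of these markers in the changes of F5, Pf4, Itga2b and Gp1ba was not tested.

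At D21, 0 of 6 genes tested were called between EAM and control hearts by edgeR or limma-voom, where 4.13% of all genes were called higher and 1.16% lower. At an unadjusted p under 0.05 there were 2 higher and 1 lower, beside 46.4% of all genes in either direction. DESeq2 called 2 higher. The log2 fold changes were 1.60 ± 0.44 for F5, 1.15 ± 0.33 for Pf4 and -0.75 ± 0.24 for Gp1ba, and Ppbp, Tubb1 and Itga2b lay between 0.24 and 0.93. Without D21 EAM replicate 3, F5 and Pf4 were called higher and Gp1ba lower. That heart held 21.9 CPM of summed T cell markers where the other 3 D21 EAM hearts held 48.8 to 92.1 CPM, 850 CPM of macrophage markers where they held 1326 to 2339 CPM, and 39516 CPM of cardiomyocyte markers where they held 17260 to 30692 CPM. Its erythroid markers summed to 928 CPM, the highest of the 24 hearts, where the other 3 held 291 to 589 CPM. Between D21 EAM and control hearts 8 of 8 T cell and 6 of 15 macrophage markers tested were called higher, and 0 of 9 cardiomyocyte and 0 of 11 erythroid markers were called. Neutrophil markers summed to 15.9 to 139 CPM in D21 control hearts and 148 to 515 CPM in D21 EAM hearts, with 1 of 12 tested called higher. The part of these markers in the D21 values was not tested.

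Within each treatment, the genes were compared heart by heart, as a description, since the 4 hearts of a day share that day and, in EAM hearts, D21 also has its own library code. Over the 12 EAM hearts, the level of a gene on the log2(CPM + 1) scale correlated with the mean of the other 9 at r = 0.94 to 0.99 for Gp9, Treml1, Ppbp, Tubb1, Gp5, Gp6 and Itga2b. It was lower for Gp1ba (r = 0.76), F5 (r = 0.70) and Pf4 (r = 0.50). Over the 12 control hearts, r was 0.96 to 0.99 for 9 genes and 0.64 for Gp1ba. In EAM hearts Gp1ba correlated with the cardiomyocyte markers at r = 0.78 and with the macrophage markers at r = -0.80, whereas the 7 genes listed first were at r = -0.49 to -0.28 with macrophage markers. F5 and Pf4 were at r = 0.24 and 0.54 with macrophage markers. Over the 12 control hearts the 7 genes were instead at r = 0.65 to 0.77 with macrophage markers, 0.73 to 0.83 with neutrophil markers and 0.53 to 0.69 with erythroid markers. The D10 hearts lie apart from the later hearts in most of these genes, and r includes that separation.

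Among 14953 other genes, those whose levels over the 12 control hearts were most like the mean of the 10 genes were Clec1b (r = 0.99), Treml2 (0.98), Lrrn3 (0.98), Draxin (0.98), P2rx1 (0.98), Itgb3 (0.98), Nrgn (0.98), Gp1bb (0.98), Cd226 (0.98) and Gm6634 (0.97). Clec1b, P2rx1, Itgb3 and Gp1bb are themselves platelet genes, for CLEC-2, an ATP-gated channel, integrin β3 and the GPIbβ subunit. Over the 12 EAM hearts r stayed at 0.85 to 0.99 for P2rx1, Gp1bb, Nrgn, Gm6634, Clec1b and Lrrn3, and was 0.39 for Draxin, 0.25 for Itgb3, -0.16 for Cd226 and -0.21 for Treml2.

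A list of 43 other platelet and megakaryocyte genes included receptors, signalling proteins, granule proteins and transcription factors, many of which other heart and immune cells express. Between D15 and D10 EAM hearts, 5 of 39 tested were called lower by edgeR, where 5.86% of all genes were. Among these were Gp1bb (-2.01 ± 0.36, adjusted p = 0.0047), P2rx1 (-1.93 ± 0.44), the ADP receptor P2ry1 (-1.76 ± 0.39, adjusted p = 0.0062) and the lipoxygenase Alox12 (-1.27 ± 0.29, adjusted p = 0.0066). P2rx1 is counted here but passed the filter on low counts only through the D10 hearts, so its value is a description. Runx1, a transcription factor of megakaryocytes and of lymphocytes, was the 1 called higher (2.19 ± 0.49, adjusted p = 0.0060, edgeR). The list's median log2 fold change was 0.22. In control hearts 1 of 37 was called lower at D15 (Clec1b) where 0.0718% of all genes were, and at D21 6 were called lower and 2 higher where 0.353% and 0.607% of all genes were. Between EAM and control hearts at D15, 18 of 37 were called higher and 1 lower, beside 18.1% and 12.9% of all genes, and at D21 6 of 36 higher and 0 lower, beside 4.13% and 1.16%.

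The transcription factors of the list differed widely in level. Gata1 and Gfi1b, which act in megakaryocytes and red cell precursors, were close to the limit of detection. Gata1 had 18 reads over the 4 D10 control hearts, 2 over the D15 control hearts, 19 over the D10 EAM hearts and 15 over the D15 EAM hearts, and Gfi1b had 9, 2, 9 and 12. The D15 EAM sums include replicate 2, which stood above its group in several of the 10 genes. Nfe2, a factor of late megakaryocytes, had 174, 39, 508 and 765 reads in the same order, with a log2 fold change of 0.30 ± 0.48 between D15 and D10 EAM hearts (adjusted p = 0.62, edgeR). Runx1, which rose in that contrast, had 451, 329, 926 and 5266 reads. Fli1, Zfpm1 and Tal1 had 667 reads or more in each group of 4 hearts, and none of them was called in that contrast. The 10 genes together held 1105 to 3201 reads per D10 control heart and 324 to 370 per D15 control heart.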

How the data were processed

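RNA from a portion of each heart was sequenced by the study as 75 bp read pairs from directional libraries, aligned to GRCm38 with HISAT2 2.0.4, freed of duplicates with Picard and assigned to Ensembl genes with featureCounts. The deposited values are unnormalized read counts per gene that the authors made in this way, and the sources used here do not give the strand setting. The counts of single samples and of the table of all samples differed in 0 cells, and 92 spike-in entries held 0 reads. Samples were grouped by their labels.

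Fits were made with edgeR 4.0.16 under R 4.3.3, and alternatives with DESeq2 1.42.0 and limma 3.58.1. Python 3.11.15 (numpy 2.4.6, pandas 2.3.3, matplotlib 3.10.9) served for tables and figures. A gene entered a fit when 4 or more of its samples held 10 or more reads. TMM normalization and edgeR's quasi-likelihood test were used, adjusted by Benjamini and Hochberg's method over the genes of the fit, and a gene was called at an FDR under 0.01 with a change of 2-fold or more. Days were compared within the 12 control and the 12 EAM libraries, and treatments within the 8 libraries of a day. The standard error of a log2 fold change is its size divided by the square root of F. Levels are CPM with TMM over the 24 libraries, correlations use log2(CPM + 1), and RPKM divides by the exon length in GENCODE M21.

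The genes of interest, the lists and the tests were chosen with earlier results of these data known. All 10 genes are named, with at most 5 other platelet genes per direction called in a tested contrast and the 10 genes of most like pattern with a mean of at least 0.5 CPM. Lists of other platelet, erythroid, macrophage, neutrophil, mast cell, B cell, T cell, endothelial, cardiomyocyte, lung and thymus genes are given by counts and summed CPM. The values of 1 gene among these lists are not reported here. Promoters and motifs are from RefSeq (GRCm38.p6).

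Alternatives were other tests, normalizations, filters, sets of samples and limits, the replicate number as a block, and fits without 1 library. Floors of 3 counts cover counting error only. P-values measure the spread between hearts. The fits were tested on simulated counts.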

Additional observations from a re-analysis of the deposited data

Results flagged for a closer look

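In groups of 4 hearts, a single heart was looked for whose gap to the nearest of the others exceeded Dixon's 95% critical share of the range of its group. This was done for each of the 10 genes and their sum in each of the 6 groups, 66 in all, and 19 were found. Chance alone finds about 1 in 20 such groups, and the genes are not independent of each other.

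Control replicate 3 at D10 was far above the other 3 D10 control hearts for Gp9 (11 CPM), Treml1 (7.97 CPM), Ppbp (48.5 CPM), F5 (12.1 CPM), Itga2b (37 CPM) and the summed level of the 10 genes (180 CPM). EAM replicate 2 at D10 was far above its group for Ppbp (35.9 CPM), Itga2b (28.7 CPM) and the sum (137 CPM). EAM replicate 2 at D15 was far above its group for Gp9 (2 CPM), Treml1 (2.10 CPM), Tubb1 (3.12 CPM), Pf4 (44.4 CPM), Gp6 (0.280 CPM), Itga2b (9.59 CPM) and the sum (82.7 CPM). This last library was also the deepest, with 24980864 counts. Besides these, 3 single values were found. Pf4 in EAM replicate 4 at D10 was below its group at 25.8 CPM, Gp5 in EAM replicate 1 at D21 was above its group at 0.838 CPM, and Itga2b in control replicate 4 at D15 was above its group at 2.89 CPM.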

How the results depend on the processing

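Counts of genes called depended most on the test and on single libraries. For D15 against D10 control hearts (7 lower), limma-voom called 0, and leaving out 1 library gave 0 to 8. For D21 against D10 control hearts (8 lower), leaving out 1 library gave 0 to 8. For D15 against D10 EAM hearts (6 lower), DESeq2, the likelihood ratio test and limma-voom gave 8 each, total counts without TMM gave 3 and leaving out 1 library 0 to 5, counts that include genes which passed the filter on low counts only through D10 hearts, as do those of the later contrasts of EAM hearts. For D21 against D10 EAM hearts (0), DESeq2, the likelihood ratio test and a fit of all 24 libraries gave 7 each, and for D21 against D15 EAM hearts (0) they gave 1 each. For D21 EAM against control hearts (0 higher, 0 lower), DESeq2 and the likelihood ratio test gave 2 higher, the fit of all 24 libraries 1, and leaving out 1 library 0 to 2 higher and 0 to 1 lower. A fit with 1 library less holds fewer samples, and a fit of control hearts with 1 D10 library less does not test Treml1 or Gp5. The cause was otherwise not tested.

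The replicate numbers were not taken as pairs, since in no comparison did all 4 same-numbered pairs of hearts deviate together at a correlation over 0.1. D21 EAM and control hearts came nearest, with 3 of 4 and a lowest correlation of 0.097, and the replicate block left 0 calls there. With the block, 1 gene in place of 7 was called lower in D15 against D10 control hearts and 5 in place of 6 in D15 against D10 EAM hearts.

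Directions reversed only for results that edgeR's test did not call. In D15 against D10 EAM hearts, Pf4 was at -0.031 with limma-voom, -0.026 with the fit of all 24 libraries and -0.027 with the replicate block, and leaving out 1 library gave -0.25 to 0.12 for Pf4 and -0.53 to 0.02 for F5 (0.016 without D10 EAM replicate 2). In D21 against D15 EAM hearts, Gp5 was at 0.35 with limma-voom and 0.13 with the replicate block, and Gp6 at -0.10 with total counts. There, leaving out 1 library gave -1.01 to 0.76 for Gp9, -1.11 to 0.57 for Treml1, -0.80 to 0.46 for Ppbp, -1.17 to 0.21 for Tubb1, -0.95 to 1.03 for Gp5 and -0.36 to 1.63 for Gp6, the highest of each without D15 EAM replicate 2.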
